A study of Mus musculus with 2 samples.

Results

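Plet1-high cDC2 cells were 726 of the 15480 quality-filtered cells of a mouse dendritic cell preparation, chosen by their unscaled counts of UMIs (unique molecular identifiers, 1 per captured RNA molecule). A member carried 3 or more UMIs of Plet1 and 1 or more of Sirpa. It carried at most 1 UMI of Xcr1 and Clec9a together (cDC1 genes), at most 1 of Fscn1 (a gene of migratory dendritic cells), fewer than 10 of C1qa, C1qb and C1qc together (macrophage genes), at most 2 of Mgl2, at most 1 of Tnfsf9 and at most 1 of Egr2 and Egr3 together. The reference cells passed the same exclusions with no Plet1 UMI (Plet1-zero cells, 3154 in all). Another reference had the thresholds of Plet1 and Mgl2 exchanged, with 3 or more Mgl2 UMIs and at most 2 of Plet1 (Mgl2-high cells, 164 in all).

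The preparation held CD3-negative, B220-negative, CD11c-positive, MHC-II-positive cells sorted from mesenteric lymph nodes and small intestinal lamina propria of untreated 15-day-old mice of the Gm38411-iCre-hCD2 reporter genotype, which every animal carried. Each tissue gave 3 biological replicates, each marked by its own hashtag antibody (hashtags 2, 4, 5, 6, 8 and 9), and all were sequenced as 1 pooled 10x library. The labels do not say which hashtag belongs to which tissue or how many animals a replicate pooled, so hashtags are described one by one and no tissue is named. Classes of cells were compared with the hashtag as a term of the fit.

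Conventional type 2 dendritic cells (cDC2) are SIRPα-positive antigen-presenting cells that take up antigen in tissues and carry it to draining lymph nodes to prime CD4 T cells. In the small intestine the main cDC2 population bears the integrin chains CD103 (Itgae) and CD11b (Itgam), while cDC2 without CD103 express more of the genes shared with monocytes. Plet1 encodes a glycosylphosphatidylinositol-anchored surface protein best known from trophoblast and epithelial progenitors, and it has been reported on intestinal dendritic cells.

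The members came almost entirely from 3 hashtags. Hashtags 6, 8 and 9 held 176, 173 and 374 of them, and hashtags 2, 4 and 5 held 2, 1 and 0. As a share of all cells that passed the same gate at any Plet1 count, this was 22.2% in hashtag 6 (exact 95% binomial interval 19.3 to 25.2), 24.4% in hashtag 8 (21.3 to 27.8) and 27.3% in hashtag 9 (24.99 to 29.79). In hashtag 2 it was 0.357% (0.043 to 1.28), in hashtag 4 0.165% (0.004 to 0.914), and in hashtag 5 0 of 535 cells (0 to 0.687). These intervals cover counting error only.

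The hashtags also differed in depth, with medians of 6224 to 6564 UMIs per cell in hashtags 2, 4 and 5 and 12000 to 12942 in hashtags 6, 8 and 9. After every gated cell was thinned to 4000 UMIs, a Plet1 UMI was seen in 5.06%, 4.19% and 3.21% of cells of hashtags 2, 4 and 5 and in 30.9%, 34.2% and 35.9% of cells of hashtags 6, 8 and 9. Cells carrying T cell genes and no Sirpa, which should lack Plet1, showed it in 4.02% of 224 cells at the same depth (7% of 243 cells unthinned, median 6931 UMIs). Of those 243 cells, 231 came from hashtags 2, 4 and 5 and only 12 from hashtags 6, 8 and 9. The shares of hashtags 2, 4 and 5 were close to that 4.02% and are read as background. Those of hashtags 6, 8 and 9 were several times higher, also against the cDC1 of the same hashtags, of which 8.03% showed Plet1 after thinning (22% of 1265 cells unthinned, median 19138 UMIs). In the same hashtags 12.7% of cells with 10 or more C1q UMIs showed it after thinning, and 9.80% of cells with 5 or more Fscn1 UMIs.

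**Figure D1:**
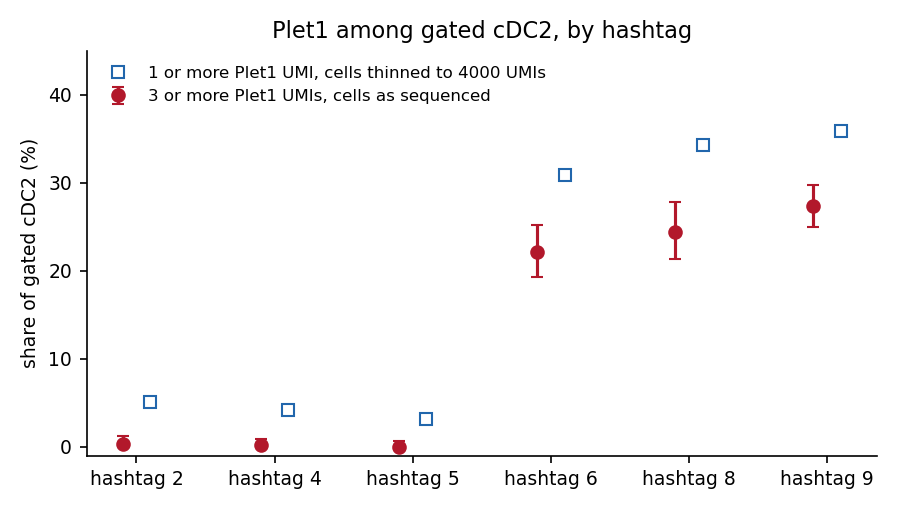
Share of gated cDC2 cells with Plet1, by hashtag (vertical axis, percent). Filled circles give cells with 3 or more Plet1 UMIs as sequenced, with exact 95% binomial intervals, and open squares give cells with 1 or more Plet1 UMI after thinning to 4000 UMIs. Hashtags 6, 8 and 9 lie between 22.2% and 27.3% by the first measure, and hashtags 2, 4 and 5 lie at or below 0.357%.

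All member libraries therefore come from hashtags 6, 8 and 9, with 723 members. The fit also holds reference libraries of the other hashtags (Plet1-zero cells of 2, 4 and 5, Mgl2-high cells of 2 and 4), which enter its fold changes and its spread. Their Plet1 counts ran from 3 to 62 UMIs per cell with a median of 7, and the medians of the 3 hashtags lay between 6.5 and 7. Plet1 is on chromosome 9 (50494525 to 50505482, plus strand, GRCm38). Its level in the summed members, in CPM (counts scaled to a common library total, after TMM scaling), was 791 in hashtag 6, 848 in hashtag 8 and 763 in hashtag 9. These values follow from the gate. The free RNA of empty droplets held Plet1 at 133 CPM.

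The 250 bases before the Plet1 start are shown because this gene defines the members, and those of Lyz2 and Gp2 because both genes were higher in the members than in Plet1-zero cells. They run 5′ to 3′ on the gene's strand, and are RefSeq sequences on GRCm38.p6: Plet1 at chr9:50494275-50494524 (plus strand), Lyz2 at chr10:117282273-117282522 (minus strand) and Gp2 at chr7:119459273-119459522 (minus strand). Capitals mark exact matches, on either strand, to an AP-1 motif (TGANTCA), an RBPJ motif (TGGGAA) or, by its name, an ETS-IRF composite motif, none of which overlapped here.
Plet1: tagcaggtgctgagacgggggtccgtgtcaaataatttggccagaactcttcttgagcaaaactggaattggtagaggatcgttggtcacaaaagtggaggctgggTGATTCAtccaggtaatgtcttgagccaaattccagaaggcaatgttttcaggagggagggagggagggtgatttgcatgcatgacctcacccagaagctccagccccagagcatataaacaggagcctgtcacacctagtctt
Lyz2: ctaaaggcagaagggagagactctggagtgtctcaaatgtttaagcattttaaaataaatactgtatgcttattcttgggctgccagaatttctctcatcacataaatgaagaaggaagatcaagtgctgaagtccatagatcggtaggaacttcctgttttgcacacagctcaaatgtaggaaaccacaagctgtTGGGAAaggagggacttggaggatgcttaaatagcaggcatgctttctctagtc
Gp2: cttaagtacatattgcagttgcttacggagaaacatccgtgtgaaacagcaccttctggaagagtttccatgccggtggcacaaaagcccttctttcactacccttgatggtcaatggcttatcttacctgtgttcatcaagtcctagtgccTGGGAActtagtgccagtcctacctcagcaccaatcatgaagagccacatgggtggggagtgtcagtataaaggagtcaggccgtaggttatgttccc
Plet1 held 1 AP-1 match, and Lyz2 and Gp2 held 1 RBPJ match each. The same window of Epcam, also higher in the members, held no match to the 3 motifs and is not printed. Among 32851 RefSeq windows of the same length, 6.75% held the AP-1 letters, 21.6% the RBPJ letters and 2.3% the composite. A match describes the letters of the window only.

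The label was checked against the dendritic cell genes, and the markers given with the gate are described after them. The members carried conventional dendritic cell transcripts, at levels near or above those of Plet1-zero cells. That list (7 genes) summed to 29513 to 33027 CPM against 26487 to 28849 CPM. Itgax (279, 289 and 283 CPM in hashtags 6, 8 and 9, against 222, 225 and 235 CPM) was higher in each. So were Dpp4, H2-Aa, H2-Ab1 and Cd74, and none of these genes passed by edgeR. The cDC2 list without Sirpa (7 genes) summed to 1274 to 1481.5 CPM against 1242 to 1310 CPM. Sirpa, a gate gene, was lower in each hashtag. Flt3, the receptor for the dendritic cell growth factor FLT3L, stood at 136, 131 and 140 CPM in hashtags 6, 8 and 9, against 137, 123 and 135 CPM. Zbtb46, a transcription factor of conventional dendritic cells, stood at 145, 167 and 172 CPM against 177, 187 and 175. Irf4, the transcription factor required by intestinal cDC2, stood at 322, 393 and 333 CPM against 326.5, 354 and 339. The groups overlapped for Flt3 and Irf4, and for Zbtb46 the members were slightly lower in each hashtag without passing the test (log2 fold change -0.12, adjusted p = 0.769 by edgeR).

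Of the 3 other markers named with the gate, Fat3 and Hgf had higher summed CPM in the members than in Plet1-zero cells, and Osgin1 did not. They are given without a test, since they came with the choice of the cells. Fat3, an atypical cadherin, stood at 114, 130 and 118 CPM in the members against 47.2, 84.2 and 45.6 CPM, and the groups did not overlap. Hgf, hepatocyte growth factor, stood at 26.4, 47.4 and 36.4 CPM against 22.2, 25.2 and 18.4 CPM, so the groups did not overlap but lay close in hashtag 6. Osgin1, an oxidative stress-induced growth inhibitor, stood at 137, 144 and 120 CPM against 132, 159 and 115 CPM, and the groups overlapped. Its level differed by hashtag, since the Plet1-zero cells of hashtags 2, 4 and 5 held it at 5.57, 7.09 and 8.60 CPM.

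Markers of other cell types were given as summed CPM of each list. The macrophage and monocyte list (12 genes) summed to 568 to 837 CPM over the 3 member libraries and to 253 to 340 CPM in Plet1-zero cells. Without the gate genes and Lyz2 (8 genes) it summed to 202 to 209 CPM against 169 to 253 CPM, and its defining genes Mertk and Ly6c2 were at 0 in at least 1 member library each. The list of RORγt-positive dendritic cells (7 genes, with Prdm16 and Col17a1) summed to 8.2 to 16.1 CPM, against 8.7 to 46.4 CPM. The intestinal epithelium list (20 genes) summed to 242 to 259 CPM against 156 to 221 CPM. Epcam made up 194 to 196.5 CPM of the former, and Cdh1 (E-cadherin) stood at 48.6, 43 and 39.9 CPM against 30.6, 37.6 and 27.5 CPM, higher in each hashtag. Vil1, the enterocyte villin, stood at 0.472 to 0.872 CPM, and between 8 and 14 of the 20 genes were at 0. The ILC3 list (8 genes) summed to 410, 438 and 382 CPM against 371, 394 and 338 CPM, higher in each hashtag. Kit made up 346, 342 and 303 CPM of it in the members, and Gata3 was at 0 in all 3 member libraries. The cDC1 list summed to 1112 to 1216 CPM against 1216 to 1285 CPM, and the migratory dendritic cell list to 633 to 875 CPM against 697 to 903 CPM. The T and NK cell list (12 genes) summed to 32.5 to 49.0 CPM against 27.0 to 33.4 CPM. Cd4 made up 30.7, 41.9 and 29.2 CPM of it in the members, against 24.0, 25.2 and 22.5 CPM in Plet1-zero cells. The part of all these marker lists in the differences between classes was not tested. The members were deeper than the Plet1-zero cells, with medians of 13776 and 9509 UMIs per cell.

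Against Plet1-zero cells, summed per hashtag and tested with edgeR's quasi-likelihood test with the hashtag as block, 227 of 11619 genes passed an adjusted p of 0.05, or 1.95% of all tested. Of these, 123 were higher in the members (1.06%) and 104 were lower (0.895%), and the median log2 fold change of all genes was -0.02. The members had more of the CD103 chain, Epcam, Cd24a, Gp2, Lyz2 and the IL-22 binding protein gene Il22ra2, and less of Setbp1, Itga9, Aff3, Maml2, Ccr2 and heat-shock genes. Since the classes are cells of the same replicates divided by a measured transcript, this describes what goes with Plet1 counts in these cells. Without the filter on low counts 487 genes were called and 39.8% of them were higher, against 54.2% with it. With the Plet1-zero cells matched to the members on UMIs, 288 genes were called, and 163 of the 227 were among them.

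**Figure D2:**
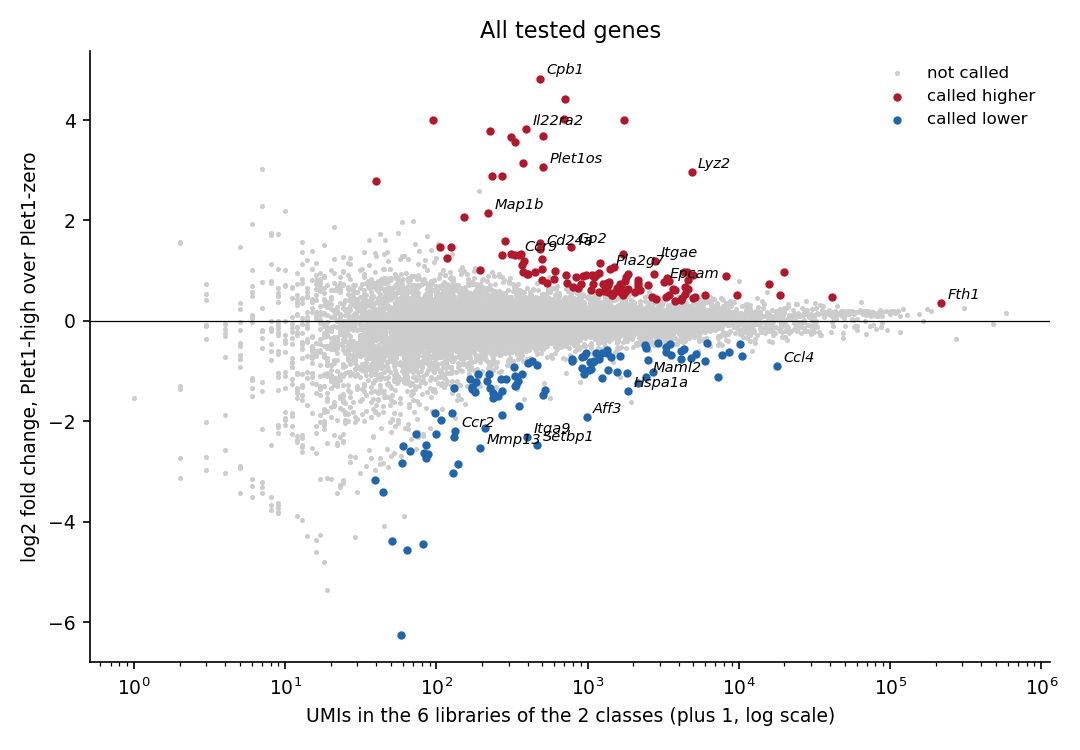
Each point is 1 tested gene, with the UMIs of the 6 libraries compared on the horizontal axis (log scale) and the log2 fold change of Plet1-high over Plet1-zero cells on the vertical axis. Red points are the 123 genes called higher and blue points the 104 called lower, at an adjusted p of 0.05 by edgeR.

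Of the 14 tested genes of the CD103+CD11b+ intestinal cDC2 list, 4 were higher, none was lower and 10 did not pass, and the median log2 fold change was 0.11. Itgae, the CD103 integrin chain that binds E-cadherin, stood at 205, 191 and 186 CPM in the members of hashtags 6, 8 and 9. The Plet1-zero cells held 83.35, 83.0 and 87.1 CPM. The groups were far apart, and the difference was 2.27-fold (log2 1.18, SE 0.14, adjusted p = 2.54e-05, higher in 3 of 3 pairs).

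Its partner in that phenotype did not follow. Itgam, the CD11b chain, stood at 175, 211 and 157 CPM in the members and 171, 188 and 178 CPM in Plet1-zero cells, which overlap (log2 0.01, SE 0.12, adjusted p = 0.992). After thinning to 4000 UMIs, 128 of 703 members had a UMI of both chains (18.2%, exact interval 15.4 to 21.3), against 134 of 1303 Plet1-zero cells (10.3%, 8.69 to 12.1). Unthinned, the shares were 59.9% and 26%. Mgl2-high cells showed both chains in 23 of 120 thinned cells (19.2%, 12.6 to 27.4) and 48.8% unthinned. T cell gene-bearing cells, which should lack Itgam, showed it in 6.7% of cells at the thinned depth.

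Epcam, a homophilic adhesion molecule of epithelia that intestinal and skin dendritic cells also carry, stood at 194, 195 and 196.5 CPM in the members and 106, 133 and 108 CPM in Plet1-zero cells. These groups did not overlap, and the difference was 1.71-fold (log2 0.77, SE 0.11, adjusted p = 0.00023). Cd24a, a small surface sialoglycoprotein of CD103-positive intestinal dendritic cells, stood at 40.1, 29.4 and 34.2 CPM against 11.7, 9.01 and 18.1 CPM (log2 1.43, SE 0.20, adjusted p = 0.00023). Its call was lost without cells that carried any UMI of the epithelial list (log2 0.55, adjusted p = 0.844), a filter that left 32, 44 and 59 members. That list holds Epcam, which 72.3% of members and 42.4% of Plet1-zero cells carried unthinned, so the filter selects cells on a gene that itself differs between the classes, and it does not test for RNA of other cells. Cd101, an inhibitory receptor of this subset, stood at 107, 112 and 85.0 CPM against 65.5, 82.7 and 86.4 CPM, which overlap (adjusted p = 0.454). Notch2, whose signal this subset requires, had a log2 fold change of -0.05 (SE 0.14, adjusted p = 0.953).

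Il22ra2 encodes a secreted receptor that binds IL-22 and blocks it. It stood at 79.3, 40.3 and 23.3 CPM in the members and at 5.61, 3.42 and 1.29 CPM in the Plet1-zero cells. The member libraries differed among themselves by more than for the genes above and still lay above every reference library, at 14.1-fold (log2 3.82, SE 0.27, adjusted p = 8.49e-08). Few cells carried it: 34 of 723 members had a UMI, 1 cell held 85 of the 349 UMIs, and the 10 richest cells held 79.1% of them. Outside the 10 richest cells of each class the level was 7.41 and 0.79 CPM, without TMM scaling. After thinning, 2.7% of members and 0.84% of Plet1-zero cells showed it. Among T cell gene-bearing cells 2 of 224 showed it (0.89%), too few to set a background for the Plet1-zero cells.

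Lyz2, the lysozyme gene of macrophages, monocytes and some dendritic cells, showed the difference with the lowest adjusted p outside the gate genes. It stood at 621, 348 and 449 CPM in the members and at 67.0, 58.7 and 64.0 CPM in the Plet1-zero cells, 7.83-fold apart (log2 2.97, SE 0.14, adjusted p = 2.88e-12). Its UMIs were also uneven, the 10 richest members holding 49.3% of 4014 UMIs and 353 of 723 members holding any. Outside the 10 richest cells of each class it stood at 207 and 41.5 CPM without TMM scaling. Reads of its neighbour and close copy Lyz1 may be shared between both genes, and Lyz1 had 94 UMIs in the libraries compared. Of the 34 members with an Il22ra2 UMI, 30 also held a Lyz2 UMI.

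Lyz2 belongs to the list of genes of CD103-negative and monocyte-linked cDC2, where 2 of 13 tested genes were higher, 1 was lower and 10 did not pass (median log2 fold change 0.11). Csf1r, the receptor for the macrophage growth factor CSF1, stood at 24.55, 22.3 and 26.4 CPM against 18.1, 16.5 and 9.86 CPM (log2 0.94, SE 0.23, adjusted p = 0.0308). This call did not hold without hashtag 9 (adjusted p = 0.672), and its sign turned under the filter on epithelial UMIs, which selects on Epcam (log2 -0.68). Ccr2, the chemokine receptor by which monocytes enter tissue, was lower, at 2.36, 1.09 and 1.53 CPM against 8.92, 9.01 and 8.56 CPM (log2 -2.20, SE 0.41, adjusted p = 0.00369). Cd209a, a lectin of CD103-negative cDC2, stood at 176, 198 and 193 CPM against 151, 170 and 178 CPM and did not pass (adjusted p = 0.476), nor did Klf4 (0.468) or Cx3cr1 (0.686).

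**Figure D3:**
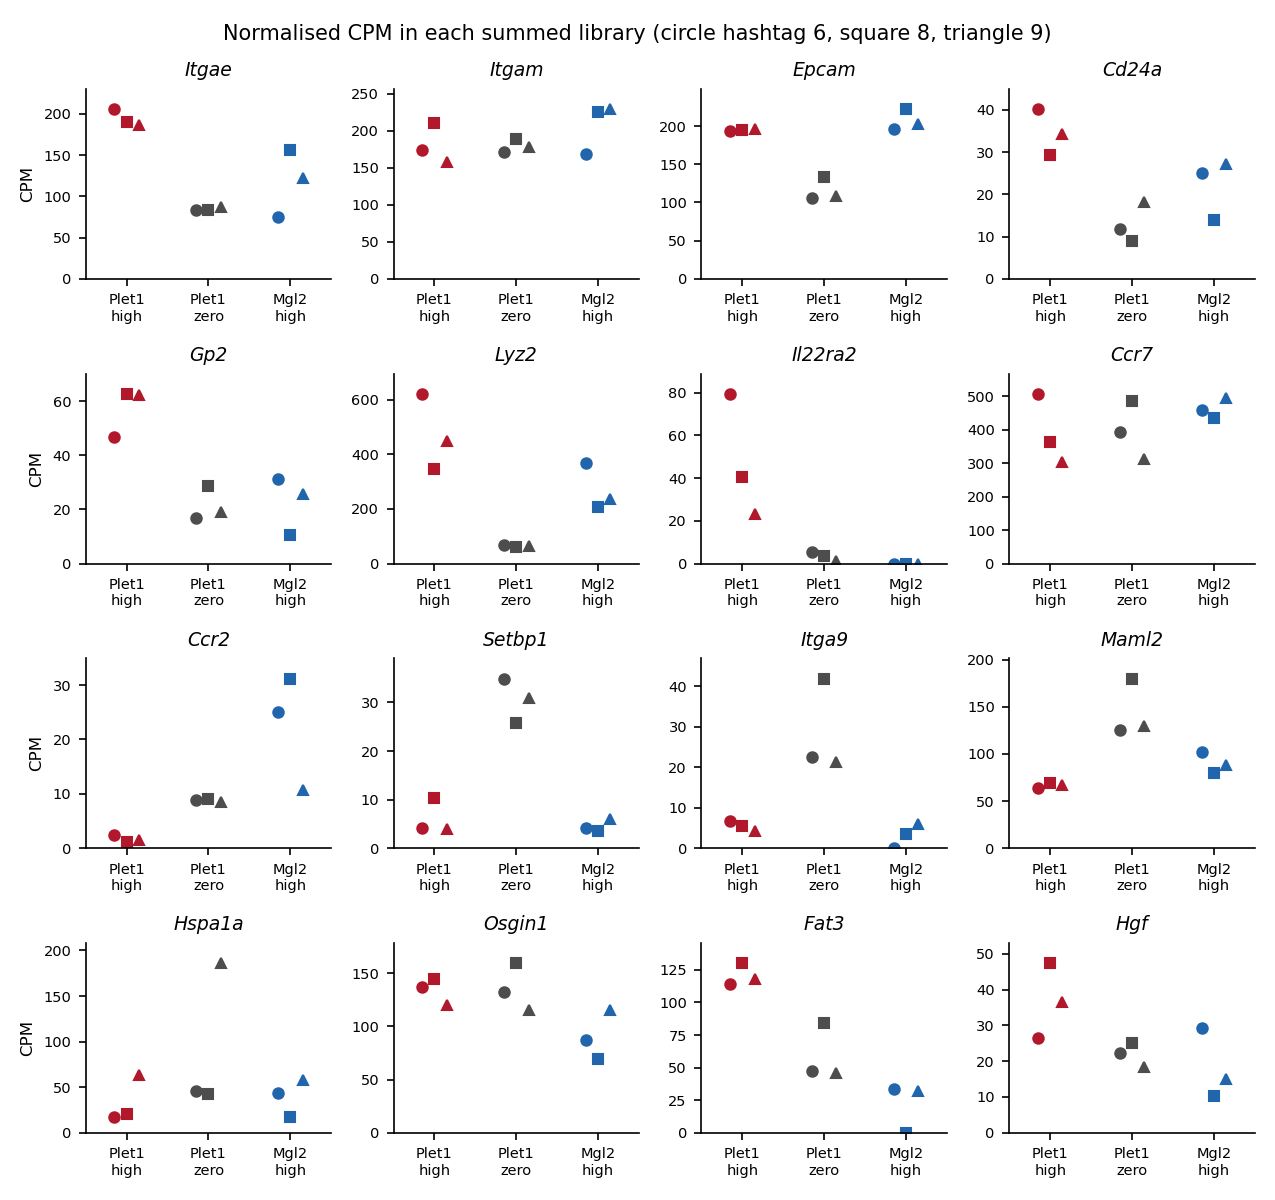
TMM-scaled CPM of 16 genes in each summed library (vertical axes from 0, linear), by class of cells. Each symbol is 1 library, with a circle for hashtag 6, a square for hashtag 8 and a triangle for hashtag 9. Itgae, Epcam, Cd24a, Gp2, Lyz2, Il22ra2 and Fat3 have every member library above every Plet1-zero library, while Itgam, Ccr7 and Osgin1 overlap.

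The genes with the largest differences came from several families. Gp2, a membrane glycoprotein that binds type 1-piliated bacteria and is best known on M cells, stood at 46.7, 62.6 and 62.4 CPM in the members and at 16.8, 28.6 and 18.9 CPM in the reference (2.78-fold, log2 1.47, SE 0.20, adjusted p = 0.00019). After thinning, 14.5% of members and 5.83% of Plet1-zero cells showed it, against 0.45% of T cell gene-bearing cells. Ppp1r1a, an inhibitor subunit of protein phosphatase 1, stood at 38.7, 34.3 and 38.2 CPM against 10.96, 16.5 and 11.2 CPM. Pianp, a ligand of the paired receptor PILRα, stood at 23.6, 22.9 and 20.7 CPM against 7.65, 10.9 and 4.69 CPM. In each of these genes the members and the reference were separated, though under the filter on epithelial UMIs Ppp1r1a (log2 1.51, adjusted p = 0.292) and Pianp (log2 0.89, adjusted p = 0.826) did not pass. Map1b, a microtubule-associated protein, was 4.43-fold higher but varied among member libraries (27.4, 7.62 and 20.5 CPM against 4.84, 4.35 and 3.23 CPM). Fam189a2, a transmembrane protein gene (log2 2.07, adjusted p = 0.00894) and the myeloid receptor Clec5a (log2 1.48, adjusted p = 0.0414) were also higher, and neither held without hashtag 9 (0.588 and 0.472).

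Plet1os was higher as well, at 51.0, 58.3 and 46.2 CPM against 6.37, 5.59 and 5.82 CPM (log2 3.06, adjusted p = 9.42e-09). It is annotated on the opposite strand of chromosome 9 from 50488795 to 50507823, a span that contains the whole of Plet1. Nothing in the labels or files says whether strand was used in counting, so reads of both genes cannot be told apart and this is not a separate finding.

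Genes of pancreatic digestive enzymes were also among the largest fold changes, but they rested on 2 cells. Over the 10 enzyme genes counted, 1 member of hashtag 9 held 4705 of that library's 4761 UMIs and 1 member of hashtag 8 held 403 of 424. Cpb1, a carboxypeptidase, stood at 1.89, 15.8 and 94.4 CPM in the members, in step with those cells, and 1 cell held 91.8% of its UMIs. Cells with 100 or more such UMIs numbered 13 of 15480. Without them 213 genes were called, 212 of them among the 227.

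The genes lower in the members included nuclear factors and an integrin chain. Setbp1, a nuclear SET-binding protein, stood at 4.25, 10.35 and 3.925 CPM against 34.9, 25.8 and 31.02 CPM (log2 -2.47, SE 0.26, adjusted p = 4.36e-06), and this call held under every alternative tried. In Plet1-zero cells of hashtags 2, 4 and 5 it stood at 103, 113 and 110 CPM. Aff3, a transcription elongation factor, stood at 17.9, 13.6 and 15.1 CPM against 92.3, 30.8 and 63.8 CPM (log2 -1.92, SE 0.21, adjusted p = 1.18e-05). Itga9, the integrin α9 chain, stood at 6.61, 5.45 and 4.14 CPM against 22.4, 42.0 and 21.3 CPM (log2 -2.32, SE 0.33, adjusted p = 0.00023). In all 3 genes the lowest reference library lay above the highest member library.

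Others among the lowest were Mmp13, a collagenase (log2 -2.53, adjusted p = 0.000623), Plxna4, a semaphorin receptor (log2 -2.84, adjusted p = 0.00108), the polarity gene Pard3b (log2 -3.03, adjusted p = 0.000638), the IL-12 receptor chain Il12rb2 (log2 -2.12, adjusted p = 0.00118) and the deubiquitinase Otud7b (log2 -2.32, adjusted p = 0.0023). The members held only 8 to 24 UMIs of each. C3ar1, the receptor for complement C3a, stood at 9.91, 9.26 and 13.5 CPM against 25.8, 34.5 and 31.5 CPM (log2 -1.48, SE 0.26, adjusted p = 0.00193).

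In the Notch pathway, a cell contact signal needed by CD103+CD11b+ cDC2, none of 13 tested genes was higher and 2 were lower (median log2 fold change -0.20). Maml2, a coactivator of the Notch transcription complex, stood at 63.7, 68.6 and 67.4 CPM against 126, 180 and 129 CPM (log2 -1.11, SE 0.13, adjusted p = 2.4e-05). Hes1, a Notch target, stood at 2.36, 3.27 and 1.53 CPM against 10.7, 10.9 and 4.85 CPM (log2 -1.83, SE 0.34, adjusted p = 0.00381). The Hes1 call was lost under 6 alternatives, among them depth-matched reference cells (adjusted p = 0.158), and that of Maml2 was lost only without the hashtag block.

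Among 13 tested genes of retinoic acid handling, a vitamin A signal that intestinal dendritic cells both make and receive, 2 were higher and none was lower (median 0.03). Ccr9, the gut-homing chemokine receptor, stood at 27.4, 16.9 and 26.6 CPM against 10.7, 4.66 and 12.9 CPM (log2 1.31, SE 0.22, adjusted p = 0.00111). Its sign turned under the filter on epithelial UMIs, which selects on Epcam (log2 -0.62), and without cells carrying lymphocyte UMIs the adjusted p was 0.952. The lymphocyte filter left 70, 67 and 163 members, and most UMIs of its lists in the members were of Ighm and Cd4. Rarb, a retinoic acid receptor, stood at 18.4, 26.7 and 37.5 CPM against 13.25, 14.3 and 14.2 CPM (log2 0.97, SE 0.23, adjusted p = 0.023), and did not pass without hashtag 9 (0.772) or without hashtag 8 (0.123). Aldh1a2, the enzyme that makes retinoic acid in intestinal dendritic cells, stood at 6.61, 5.99 and 7.85 CPM against 10.7, 8.70 and 9.86 CPM (adjusted p = 0.575).

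Of 14 tested chemokine and migration receptors, 1 was higher (Ccr9) and 1 was lower (Ccr2), with a median log2 fold change of -0.30. Ccr7, the receptor that guides dendritic cells to lymph nodes, stood at 506, 363 and 304 CPM against 393, 485 and 313 CPM, which overlap (log2 -0.07, SE 0.15, adjusted p = 0.933). Among 12 tested chemokine ligands 2 were lower (median -0.56, against -0.02 over all genes). Ccl4, an inflammatory chemokine, stood at 477, 525 and 616 CPM against 963, 995 and 994 CPM (log2 -0.90, SE 0.14, adjusted p = 0.000769). Ccl3, a related chemokine, stood at 190, 161 and 186 CPM against 296, 282 and 261 CPM (log2 -0.66, SE 0.12, adjusted p = 0.00331).

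Of 21 tested early response and dissociation genes, which cells switch on within minutes of handling, 4 were lower and none was higher (median -0.21). Hspa1a, an inducible heat-shock chaperone, stood at 17.5, 20.7 and 63.7 CPM against 45.4, 42.9 and 186 CPM (log2 -1.39, SE 0.17, adjusted p = 4.59e-05), so both classes were highest in hashtag 9 and the members were lower in each hashtag. Hspa1b is a near-identical copy, and reads may be shared between both (log2 -1.24, adjusted p = 2.4e-05). Jun (log2 -0.80, adjusted p = 0.0147) and Egr1 (log2 -0.76, adjusted p = 0.0147) were the other genes called, while Fos had a log2 fold change of -0.06 (adjusted p = 0.927). The Jun call was lost under 4 of 22 alternatives, among them DESeq2 (0.0765) and without hashtag 9 (0.136). The gate itself used Egr2 and Egr3.

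Lipid mediator genes included Pla2g7, which degrades platelet-activating factor, at 126, 81.1 and 84.8 CPM against 42.8, 56.2 and 39.4 CPM (log2 1.04, SE 0.18, adjusted p = 0.00211). Ltc4s, leukotriene C4 synthase, stood at 38.7, 40.8 and 40.3 CPM against 16.8, 29.8 and 16.6 CPM (log2 0.999, SE 0.20, adjusted p = 0.00776). They were the 2 called among 14 tested genes of that list (median -0.03), and neither passed with DESeq2 (0.0648 and 0.0969). Scd2, a fatty acid desaturase, was the 1 called of 20 lipid handling genes (log2 0.75, adjusted p = 0.0126). Its call was lost under 5 of 22 alternatives, among them DESeq2 (0.174) and without hashtag 9 (0.411).

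In pattern recognition, Clec4n (Dectin-2, a receptor for fungal mannans) was higher at 92.1, 111 and 94.85 CPM against 48.7, 78.6 and 59.5 CPM (log2 0.73, SE 0.14, adjusted p = 0.00379). Tlr7, a receptor for single-stranded RNA (log2 -1.84, adjusted p = 0.0453, not passing under 13 of 22 alternatives), and Ifih1, a sensor of double-stranded RNA (log2 -0.77, adjusted p = 0.0213), were lower, and the other 24 of 27 tested genes did not pass. In the TGF-beta list 1 of 15 was lower, the signal transducer Smad3 (log2 -1.87, adjusted p = 0.0104). The Smad3 call was lost under 4 of 22 alternatives, among them depth-matched reference cells (0.0837), DESeq2 (0.118) and without hashtag 9 (0.0545). In the NRF2 and redox list 1 of 27 was higher, the ferritin heavy chain Fth1, at 11180, 12690 and 10910 CPM against 8670, 9549 and 9097 CPM (log2 0.36, adjusted p = 0.0224). The Fth1 call was lost without hashtag 6 (0.305), 8 (0.157) or 9 (0.261).

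The counts of calls among genes of antigen presentation and costimulation were near the 1.95% of all genes. Of 16 tested MHC class II genes, 1 was lower, the class II transactivator Ciita (log2 -0.52, SE 0.14, adjusted p = 0.0471), and it did not pass under 12 of 22 alternatives. H2-Ab1, a class II chain, stood at 5840, 6610 and 5800 CPM against 5250, 5690 and 5130 CPM (adjusted p = 0.212). None of 16 costimulatory ligands, 15 MHC class I genes, 20 NF-κB regulators, 19 uptake receptors or 15 interferon-stimulated genes passed by edgeR. Among 16 cell cycle genes 1 was lower, cyclin B2 (Ccnb2, log2 -1.21, adjusted p = 0.0232), a call lost under 7 of 22 alternatives, among them without hashtag 8 (0.144) or 9 (0.183) and with DESeq2 (0.329).

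**Figure D4:**
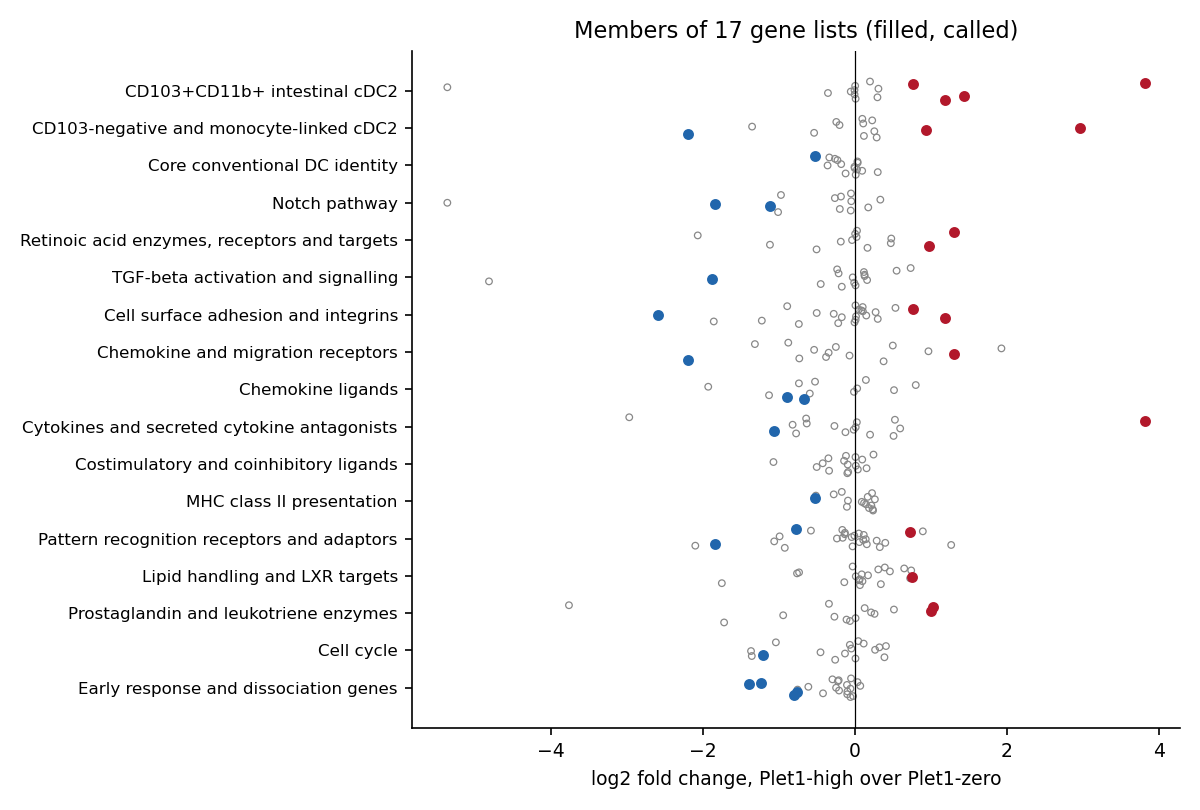
Log2 fold change of Plet1-high over Plet1-zero cells (horizontal axis) for the tested genes of 17 lists (rows), 1 symbol per gene, spread vertically to separate them. Filled red and blue symbols are genes called higher and lower by edgeR, and open symbols did not pass; the CD103+CD11b+ list holds 4 red symbols and no blue one.

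The number of calls depended on the libraries. Without hashtag 9, which holds 374 of the 723 members, 81 genes were called and 69 of the 227 were among them; without hashtag 6 the count was 137 and without hashtag 8 it was 135. With hashtags 6, 8 and 9 only it was 476, and with only the 2 classes compared in the fit it was 946. With DESeq2 it was 99, and 88 of the 227 were among them.

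Around the threshold of 3 Plet1 UMIs the levels graded, shown here as description without a test and in CPM without TMM scaling. Itgae had a median over the 3 hashtags of 73.8 in cells with 0 Plet1 UMIs (range 70.6 to 76.3), 96.3 with 1 (77.4 to 121), 120 with 2 (118 to 148), 124 with 3 (110 to 174) and 183 with 10 or more (161 to 216). Just outside the gate 170 cells held 2 Plet1 UMIs, and just inside it 122 cells held 3. Setbp1 had a median of 27.2 with 0 UMIs, 14.9 with 1, 5.43 with 2, 3.4 with 3 and 4.05 with 10 or more, so most of its fall lay below the threshold. Lyz2 had medians of 56.0, 49.9, 67.6 and 58.9 with 0, 1, 2 and 3 UMIs and 492 with 10 or more (395 to 792), so its rise lay inside the gate. Itgam had medians of 156 with 0 and 138 with 10 or more, and its ranges overlapped.

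**Figure D5:**
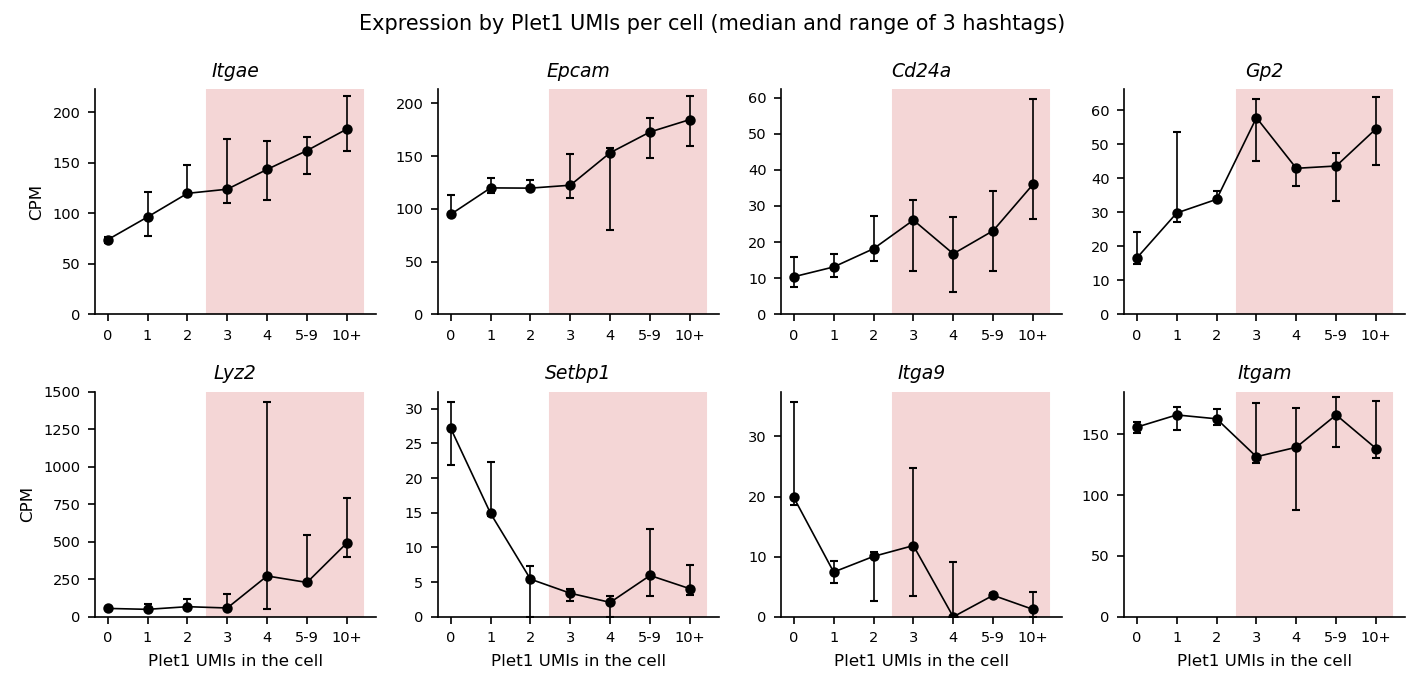
CPM without TMM scaling (vertical axes from 0) for 8 genes in gated cDC2 of hashtags 6, 8 and 9, by Plet1 UMIs in the cell. Points are the median of 3 hashtags, bars the lowest and highest hashtag, and shading the members; Itgae goes from a median of 73.8 at 0 UMIs to 183 at 10 or more, and Setbp1 from 27.2 to 4.05.

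The members were also compared with the Mgl2-high cells. Mgl2 encodes the macrophage galactose-type lectin 2 of many cDC2. In hashtags 6, 8 and 9 they numbered 38, 25 and 58, at nearly the members' depth (medians 13367 and 13776 UMIs), and the small libraries limit what can be seen. They were not a pure cDC2 counterpart: the list of RORγt-positive dendritic cell genes summed to 158 to 323 CPM in them. Prdm16, a transcription factor of those cells, stood at 167, 125 and 97.0 CPM in them and at 2.36, 2.18 and 1.09 CPM in the members.

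Of 11619 genes 409 passed (3.52%), with 223 higher in the members (1.92%) and 186 lower (1.6%), by the same edgeR fit. By DESeq2 286 were called, of which 42% were higher, against 54.5%. Both comparisons use the same member libraries. The CD103+CD11b+ list gave 2 of 14 higher and none lower (median log2 0.14). Itgae stood at 74.96, 156 and 123 CPM in Mgl2-high cells, below the members in each hashtag (log2 0.80, SE 0.18, adjusted p = 0.0126), but this call was lost without hashtag 6 (0.23). Il22ra2 had no UMI in the 121 Mgl2-high cells. After thinning, it was seen in 0 of 120 of them (exact interval up to 3.03%) and in 2.7% of members, so equal shares are not excluded. The members' pooled level was 40.9 CPM, 19.5-fold above 3 counts over the Mgl2-high libraries. The members' level is carried by few cells, with 79.1% of the UMIs in 10 members and 7.41 CPM, without TMM scaling, outside them. The 19.5-fold ratio is therefore no lower bound. Epcam, at 196, 222 and 203 CPM, did not separate these classes (adjusted p = 0.835), nor did Cd24a (0.51) or Pianp (0.16).

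Lyz2 was high in both classes, at 367, 208 and 235 CPM in Mgl2-high cells (log2 0.67, SE 0.15, adjusted p = 0.0126). The call was lost under 8 of 21 alternatives, among them depth-matched cells (0.968), DESeq2 (0.0547) and without hashtag 6 (0.0956) or 9 (0.104). By share of cells the order was reversed. After thinning, 24.75% of members (exact interval 21.6 to 28.1) and 34.2% of Mgl2-high cells (25.8 to 43.4) showed it, and the intervals overlapped. Fat3, given without a test, stood at 33.3, 0 and 31.8 CPM in Mgl2-high cells. Scd2 (log2 1.55, adjusted p = 0.000773), Ccr9 (log2 2.22, adjusted p = 0.000724), Gp2 (log2 1.14, adjusted p = 0.0359), the guanine nucleotide exchange factor Rapgef4 (log2 3.70, adjusted p = 0.000271) and the orphan nuclear receptor Esrrg (log2 3.12, adjusted p = 1.31e-05) were higher in the members. The call of Gp2 did not pass under 10 of 21 alternatives, while that of Rapgef4 passed under all 21.

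The CD103-negative and monocyte-linked list gave 1 of 13 higher (Lyz2, with the limits given above) and 4 lower (median -0.59, against 0.05 over all genes). Ccr2 stood at 24.99, 31.2 and 10.6 CPM in Mgl2-high cells (log2 -3.94, SE 0.43, adjusted p = 1.31e-05), a call that held under every alternative that could be fitted. Clec10a, the lectin next to Mgl2 in sequence and in the genome, stood at 19.8, 10.9 and 14.8 CPM in the members and 74.96, 55.45 and 45.5 CPM in Mgl2-high cells (log2 -2.06, SE 0.26, adjusted p = 6.14e-05), and reads of such close copies may be shared. Cd209a stood at 250, 288 and 296 CPM in Mgl2-high cells (log2 -0.74, adjusted p = 0.016, and log2 -0.61 with hashtags 6, 8 and 9 only). In these 3 genes every member library lay below every Mgl2-high library.

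Of 16 tested cytokine genes 6 were lower in the members and 1, Il22ra2, was higher (median -0.55). Il1rn, the IL-1 receptor antagonist, stood at 3.31, 1.63 and 3.05 CPM against 12.5, 34.6 and 12.1 CPM (log2 -2.42, adjusted p = 0.00846), and Hbegf, an EGF receptor ligand, at 0.472, 0.544 and 0.218 CPM against 12.5, 6.93 and 34.9 CPM (log2 -5.52, adjusted p = 0.00119). Aldh1a2 was lower (log2 -1.46, adjusted p = 0.0325) but did not pass under 10 of 21 alternatives. Also lower were the transcription factors Irf8 (log2 -1.61, adjusted p = 0.00102) and Zeb2 (log2 -0.83, adjusted p = 0.000211). Of 19 uptake and Fc receptor genes 4 were lower, among them the inhibitory receptor Fcgr2b (log2 -1.59, adjusted p = 0.00788) and the signalling chain Fcer1g (log2 -0.44, adjusted p = 0.03). None of 16 costimulatory ligands passed. With the members matched to the Mgl2-high cells in number and depth, 94 genes were called, 90 of them among the 409, and the count without hashtag 6, 8 or 9 was 268, 227 or 249. With hashtags 6, 8 and 9 only it was 494. Without cells carrying lymphocyte UMIs it was 73, and Prdm16 and Serpinb1a turned sign. This filter left 14, 10 and 17 Mgl2-high cells in hashtags 6, 8 and 9. It acts mostly on Ighm and Cd4, which every class carried, and it does not test for RNA of lymphocytes.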

How the data were processed

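UMI counts were deposited by the authors as 1 unfiltered matrix of genes and barcodes made with Cell Ranger 8.0.1 on mm10, per the file header and the submitters' processing notes, with a deposited table calling each barcode's hashtag; introns, strand and the hashtag settings are not given in the sources used here. Barcodes with 1 hashtag (19239) were kept with 500 or more genes and at most 10% mitochondrial UMIs, leaving 15480; hashtag multiplets were thereby removed and no further doublet caller was run, and 16 other columns of the table were not used. Cells were gated on raw UMIs, and counts were summed per class and hashtag where at least 10 cells were present (14 libraries of 131230 to 7068248 UMIs; Plet1-high libraries 2251142 to 5356637). edgeR 4.0.16 (R 4.3.3, limma 3.58.1) fitted all libraries with TMM scaling, filterByExpr, class and hashtag as terms (6 residual degrees of freedom) and quasi-likelihood tests, with Benjamini-Hochberg adjustment over 11634 genes. The 12 gate genes and 3 markers given with the gate were left out of counts of calls, which cover 11619 genes; at an unadjusted p under 0.05 the counts were 1371 and 1723. The test was also run on counts simulated from its own fit, with 1 common spread for all genes. Such counts hold no uneven cells, so this does not bear on calls carried by few cells. DESeq2 1.42.0 was an alternative. Free RNA was summed from barcodes with at most 100 UMIs.

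Hashtags mark biological replicates, per the labels, so classes of 1 hashtag are pairs; over genes their deviations from the class means correlated at 0.04 to 0.07 (Plet1-high with Plet1-zero, hashtags 6, 8 and 9). A replicate may hold more than 1 animal. Gene positions are from GENCODE vM21 on GRCm38. Gene names were chosen as a fixed set of 18 cDC2 and stress genes whatever their result, up to 3 called genes per list and comparison with the same sign in every pair, and the 12 highest and lowest called genes with 100 or more UMIs, predicted genes left out; Lyz1, Egr1, Flt3, Zbtb46 and other list or marker genes outside that rule are named where a list or check needed them. The members, gene lists and named genes were chosen with earlier results of these data known. Alternatives varied scaling, tool, filter, block, hashtags, classes fitted, depth, gate thresholds and cells carrying other cells' RNA; those on lymphocyte UMIs, Flt3, Zbtb46 or Dpp4 UMIs and pancreatic enzyme UMIs were added after seeing the data.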

Additional observations from a re-analysis of the deposited data

Results flagged for a closer look

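Among 117 sets of 6 values tested (gene levels in the Plet1-zero cells of the 6 hashtags, and the shares of Plet1 cells), 3 held a library far from the others, and chance gives about 1 in 20. Ifih1 stood at 99.9 CPM in the Plet1-zero cells of hashtag 6, where the next highest hashtag held 54.4 CPM, and 1 Plet1-zero cell held 12.7% of its UMIs over hashtags 6, 8 and 9; its call against the members was lost without hashtag 6 (adjusted p = 0.406). Tbxas1 stood at 17.7 CPM in hashtag 8, the next highest being 11.9 CPM in hashtag 5. Olr1 stood at 43.1 CPM in hashtag 6, the next highest being 14.6 CPM in hashtag 8, and 1 Plet1-zero cell held 27.6% of its UMIs over hashtags 6, 8 and 9.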

How the results depend on the processing

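Of the results on single genes, 3734 recomputed values kept direction and side of the threshold, 466 lost a call, 47 gained one and 12 turned sign. Those that turned, on the log2 scale against Plet1-zero cells, were Csf1r (-0.68) and Ccr9 (-0.62) without cells with epithelial UMIs, Ccl3 (0.19) and Esrrg (-1.39) without the replicate block, and Clps (-1.47) without cells with pancreatic enzyme UMIs. Against Mgl2-high cells they were Nfe2l2 (0.30) and Txnrd1 (0.12) without the block, Ccl4 (1.22), Prdm16 (3.22), Serpinb1a (0.79) and Pde7b (1.84) without cells with lymphocyte UMIs, and Clps (-1.08) without cells with pancreatic enzyme UMIs. The cause was not tested.

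With no replicate block only 13 genes were called against Plet1-zero cells and 9 against Mgl2-high cells. That fit pools the Plet1-zero libraries of hashtags 2, 4 and 5, which have no member library, with those of 6, 8 and 9. These differed widely, as for Osgin1 (5.57 to 8.60 CPM against 115 to 159 CPM). How much of the drop came from this and how much from pairing was not tested. Against Plet1-zero cells the total of calls, 227 in the main fit, became 487 with no low-count filter and 476 with hashtags 6, 8 and 9 only. It became 946 with only the classes compared and 697 with at least 30 cells per library. With DESeq2 it was 99, of which 88 were among the 227. Without cells with epithelial UMIs it was 123, of which 51 were among the 227. Without cells with lymphocyte UMIs it was 74, of which 59 were among the 227. Both filters left fewer cells, and the former chose them in part on Epcam, which differs between the classes. With 1 hashtag left out the total ran from 81 to 302. Against Mgl2-high cells the total, 409 in the main fit, became 666 with no filter. With only the classes compared it was 270, of which 212 were among the 409. With cells matched on UMIs it was 94, of which 90 were among the 409. Without cells with lymphocyte UMIs it was 73, of which 50 were among the 409. With 1 hashtag left out it ran from 227 to 472. The lymphocyte filter acted mostly on Ighm and Cd4, which every class carried. Of 56 named genes called against Plet1-zero cells, Lyz2 and Setbp1 kept the call under all 22 alternatives and Il22ra2 under the 20 that tested it. Another 9 lost it only without the block. Plet1os, counted in the 56 and the 227, also kept it under all 22. Its reads cannot be told apart from those of Plet1, which the gate selects on, so this is no separate support. Ctrl and Reg1 kept it under the 13 and 12 that tested them, but 86.5% and 87.1% of their member UMIs lay in 1 cell. The median share of hashtags 6, 8 and 9 (24.4%) became 34.2% with 1 or more UMIs after thinning to 4000 UMIs, 29.2% with 2 or more Plet1 UMIs and 17.4% with 5 or more. That of hashtags 2, 4 and 5 (0.165%) became 4.27% and 4.19% after thinning to 2000 and 4000 UMIs and 0.713% with 2 or more. A fit of hashtags 2, 4 and 5 alone could not be run with 3 members, nor could the Mgl2-high comparison without cells with epithelial UMIs. Small libraries of 25 to 58 Mgl2-high cells limit that comparison.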
